A study of Mus musculus with 9 samples.

Results

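The genes described here were 10 known transcriptional targets of the tumor suppressor p53, namely Eda2r, Plk3, Cdkn1a, Mdm2, Ccng1, Phlda3, Zmat3, Sesn1, Aen and Trp53inp1. They were taken by gene symbol from a table of 15552 protein-coding genes, each symbol matched 1 gene, and all 10 were among the 11373 genes with enough counts to be tested. Eda2r and Plk3 were chosen by their rise at 12 h in these same libraries, so the 12 h against 0 h values of the set are given as a description without p-values. RNA was sequenced from 9 libraries of MyC-CaP, a cell line from a prostate tumor of a mouse carrying a MYC transgene. All cells were kept in medium without serum and calcium before recombinant NRG1 (15 ng/mL), a ligand of the receptor HER3, and RNA was collected at 0, 12 and 24 h from 3 biological replicates each, all of them cultures of a single line. No libraries left without NRG1 for 12 or 24 h were analysed here, so the effects of NRG1 and of longer time in the starvation medium cannot be told apart.

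p53 is a transcription factor that is kept low in unstressed cells by the ubiquitin ligase MDM2 and is stabilized by DNA damage and other stresses. Its targets include the cyclin-dependent kinase inhibitor p21 (Cdkn1a), its own inhibitor Mdm2, and genes for growth control, antioxidant defense and cell death. Several of these genes, Plk3 and Cdkn1a among them, are also switched on without p53 by growth factor or stress signaling.

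The libraries held 28467089 to 39239760 counts, and the ranges of the 3 time points overlapped. Replicate 3 at 12 h stood further from its partners than any other library did. Its counts differed from those of replicates 1 and 2 with chi-square values per degree of freedom of 10.2 and 10.3, whereas the value between replicates 1 and 2 was 4.33. Changes of the 10 genes at 12 h are therefore given with and without this library. At 0 h, replicate 1 also stood off from its partners, though less far, with values of 7.63 and 6.75 beside 4.22 between replicates 2 and 3. The label of prostate epithelial-like cells was only partly met by defining markers. At 0 h the prostate factor Hoxb13 averaged 84.3 CPM (counts scaled to library size) and the epithelial keratin gene Krt8 18.2 CPM. The epithelial genes Epcam, Cdh1 and Krt18 had 3, 14 and 96 counts in all 9 libraries together. Summed immune markers stayed between 0.386 and 1.12 CPM and endothelial markers between 0 and 0.360 CPM, and those of fibroblasts, nearly all Pdgfra, between 15.4 and 17.9 CPM, with overlapping ranges at the 3 times for immune and fibroblast markers.

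The 10 genes did not move together. Eda2r, Plk3 and Cdkn1a were at least 1.5-fold higher at 12 h than at 0 h, Sesn1 was lower, and Mdm2, Ccng1, Zmat3 and Trp53inp1 differed by at most 0.16 on the log2 scale. At an adjusted p of at most 0.05 in edgeR, 4 members were higher at 12 h and 1 was lower, where 13.6% and 11.9% of all tested genes passed in these directions. With a fold change of at least 1.5 as well, the threshold used for a call, 3 members were higher, where 1.34% of all tested genes were. Because this contrast chose members, nothing is read from those counts. The median log2 fold change of the 10 genes was 0.14 at 12 h and 0.09 at 24 h against 0 h. The medians over all tested genes were -0.0028 and -0.0065. The medians of the 10 include Eda2r and Plk3, chosen by their rise over these 0 h libraries, so nothing is read from them either.

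**Figure D1:**
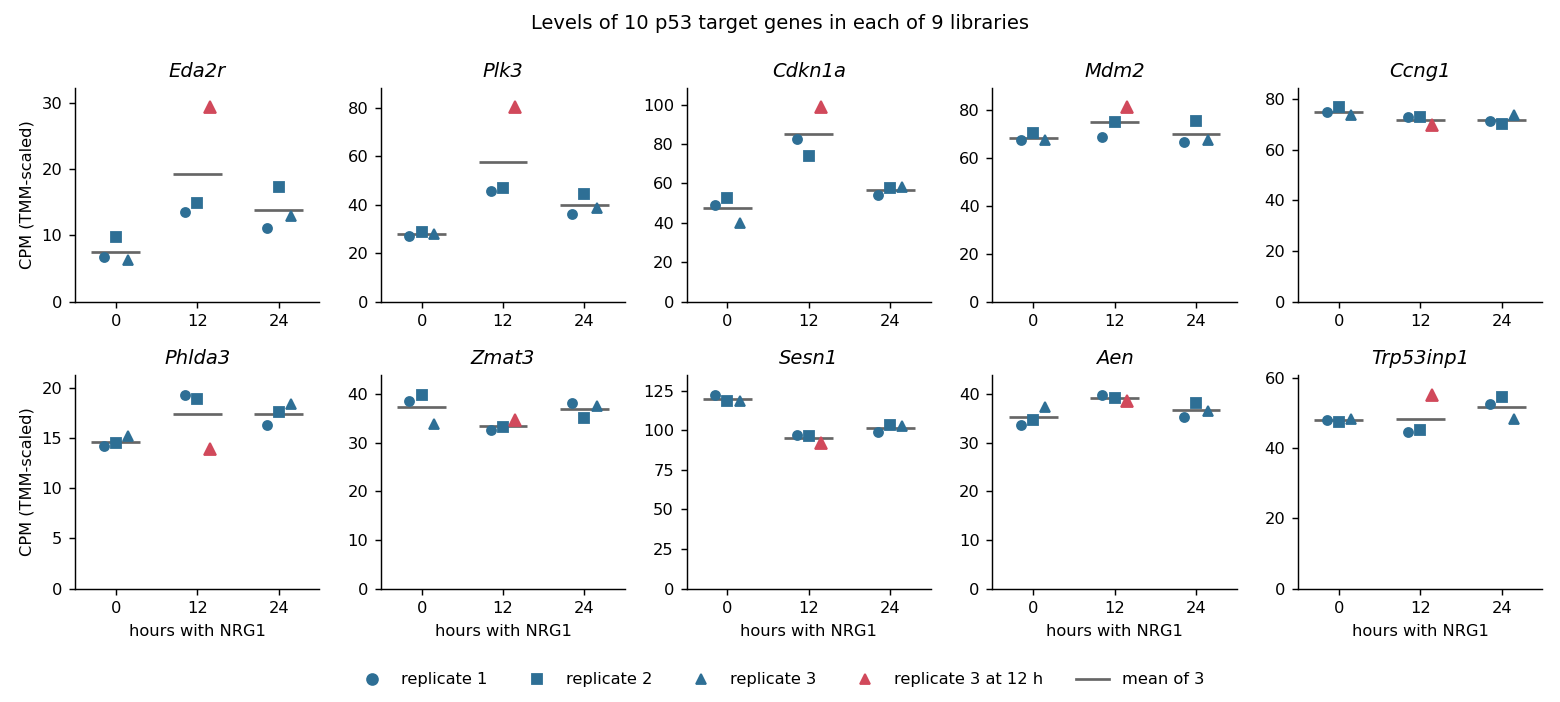
Levels of the 10 genes in each library, in CPM (linear axis from 0), against hours with NRG1. Symbols are replicates, lines are means of 3, and the red triangle is replicate 3 at 12 h, which sat far above its partners for Eda2r and Plk3 and below them for Phlda3.

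Eda2r encodes a receptor of the TNF receptor family whose ligand is a form of ectodysplasin (ENSMUSG00000034457.10, GRCm38 chrX:97333840-97377216, minus strand). Its level was 6.67, 9.73 and 6.24 CPM in replicates 1, 2 and 3 at 0 h, then 13.5, 15.0 and 29.3 CPM at 12 h and 11.1, 17.3 and 13.0 CPM at 24 h. All 6 later libraries lay above all 3 at 0 h, and the highest value by far was replicate 3 at 12 h. The log2 fold change at 12 h was 1.33 ± 0.25 (SE), and it was 0.91 ± 0.17 without replicate 3. Relative to the mean at 0 h, the 12 h libraries were higher by 0.83, 0.99 and 1.96 on the log2 scale. The rise was therefore present in each library, and replicate 3 exceeded its partners by 1.04.

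At 24 h, in libraries not used to choose it, Eda2r was higher than at 0 h by 0.86 ± 0.25 on the log2 scale (adjusted p = 0.0270 by the edgeR quasi-likelihood test), although the 0 h libraries in this comparison are those used in the choice. The test passed in 10 of 15 alternative fits, with adjusted p between 1.65e-15 without the filter on low counts and 0.124 without replicate 2 at 24 h. It was lost in DESeq2 (adjusted p = 0.0907) and on leaving out a 0 h library (replicate 1 or 3) or a 24 h library (replicate 2 or 3), where the log2 fold change was 0.78, 0.74, 0.67 and 0.90, respectively. Without replicate 3 at 12 h, a library in neither group, the rise was 0.86 ± 0.15 (edgeR adjusted p = 0.000341). With only the 0 h and 24 h libraries fitted it was 0.86 ± 0.16 (edgeR adjusted p = 0.000749). Between 12 and 24 h Eda2r differed by -0.47 ± 0.23. Without replicate 3 at 12 h this difference was -0.05 ± 0.16, so the higher 12 h mean rested on that library.

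Plk3 encodes a polo-like kinase with roles in stress responses and the cell cycle (ENSMUSG00000028680.14, chr4:117128655-117133963, minus strand). Its level was 27.0, 28.6 and 27.8 CPM at 0 h, 45.8, 46.8 and 80.1 CPM at 12 h, and 36.3, 44.4 and 38.5 CPM at 24 h. The 3 time points did not overlap, and replicates 1 and 2 at 12 h lay within 1 CPM of each other while replicate 3 stood apart. The log2 fold change at 12 h was 1.04 ± 0.15 with all libraries and 0.74 ± 0.07 without replicate 3. The separate 12 h libraries were above the 0 h mean by 0.72, 0.75 and 1.53.

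At 24 h Plk3 was 0.51 ± 0.16 above 0 h (edgeR adjusted p = 0.0312), short of 1.5-fold, and here too the 0 h libraries are those used to choose the gene. This test passed in 9 of 15 alternative fits, with adjusted p from 1.51e-15 to 0.136. It was lost in DESeq2, which gave the highest of these, and when any 1 of the 3 libraries at 0 h or replicate 2 or 3 at 24 h was left out, with log2 fold changes of 0.43 to 0.54. Without replicate 3 at 12 h the rise was 0.52 ± 0.06 (edgeR adjusted p = 4.42e-06). With only the 0 h and 24 h libraries fitted it was 0.52 ± 0.07 (edgeR adjusted p = 2.21e-05). The level at 24 h was below that at 12 h by 0.53 ± 0.15 on the log2 scale with all libraries, or by 0.23 ± 0.07 if replicate 3 at 12 h was left out. No p-value is given for that difference, since the 12 h level chose the gene.

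Cdkn1a encodes the cell cycle inhibitor p21, the best-known p53 target (ENSMUSG00000023067.14, chr17:29090976-29100727, plus strand). It measured 49.2, 52.8 and 40.1 CPM at 0 h, 82.8, 74.0 and 98.6 CPM at 12 h, and 54.3, 57.7 and 58.4 CPM at 24 h. Every 12 h library was above every library of the other time points. Its 12 h rise was the least dependent on replicate 3 among the 3 genes past 1.5-fold, with a log2 fold change of 0.84 ± 0.09 with that library and 0.74 ± 0.08 without it.

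Cdkn1a fell from 12 to 24 h by 0.58 ± 0.09 on the log2 scale (edgeR adjusted p = 0.00152), and by 0.47 ± 0.08 without replicate 3 at 12 h (adjusted p = 0.000899). This fall passed in all 15 alternative fits, with adjusted p of at most 0.0128. At 24 h the level was 0.26 ± 0.09 above 0 h, which did not pass (adjusted p = 0.0653), with 6 of 15 alternatives below 0.05 and a range of 8.03e-06 to 0.258. The fit without replicate 3 at 12 h was among them (adjusted p = 0.0103, with the log2 fold change at 0.27), as were those lacking replicate 2 of the 12 h group (0.0331) or of the 0 h group (0.0241, with 0.36). Without replicate 3 at 0 h the difference dropped to 0.16 ± 0.09 (adjusted p = 0.258).

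Mdm2 and Ccng1, genes that feed back on p53, did not share this pattern. Mdm2, the ubiquitin ligase that removes p53 (ENSMUSG00000020184.15, chr10:117688875-117710758, minus strand), measured 67.3, 70.3 and 67.6 CPM at 0 h, 68.7, 74.7 and 81.0 CPM at 12 h, and 66.7, 75.2 and 67.6 CPM at 24 h. The 3 time points overlapped, and the highest value was again replicate 3 at 12 h. Its log2 fold change was 0.13 ± 0.06 at 12 h, 0.08 ± 0.05 there without replicate 3, and 0.03 ± 0.06 at 24 h (edgeR adjusted p = 0.790). Ccng1, cyclin G1, which recruits a phosphatase to MDM2 (ENSMUSG00000020326.7, chr11:40748552-40755311, minus strand), stayed between 69.8 and 76.6 CPM in all 9 libraries. It differed from 0 h by -0.06 ± 0.04 at both later times (edgeR adjusted p = 0.321 at 24 h). Leaving out replicate 3 gave -0.03 ± 0.04 at the earlier of them.

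Sesn1 was the member that fell. It encodes sestrin 1, a stress-responsive inhibitor of mTORC1 signaling (ENSMUSG00000038332.13, chr10:41809935-41908424, plus strand). Its level was 123, 119 and 119 CPM at 0 h, 97.0, 96.5 and 91.8 CPM at 12 h, and 98.6, 103 and 102 CPM at 24 h. All later libraries lay below all 0 h libraries, and replicate 3 at 12 h was close to its partners. The log2 fold change was -0.33 ± 0.04 at 12 h, -0.30 ± 0.04 without replicate 3, and -0.24 ± 0.04 at 24 h (edgeR adjusted p = 0.000274), and the 24 h fall passed in all 15 alternative fits.

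Phlda3, a repressor of AKT signaling (ENSMUSG00000041801.5, chr1:135766119-135769136, plus strand), was the member that replicate 3 at 12 h lowered most. It measured 14.2, 14.5 and 15.2 CPM at 0 h, 19.3, 18.9 and 13.9 CPM at 12 h, and 16.3, 17.6 and 18.4 CPM at 24 h, so that replicate 3 at 12 h was the lowest of all 9 libraries. The log2 fold change at 12 h was 0.25 ± 0.10 with this library and 0.40 ± 0.08 without it. At 24 h the difference from 0 h was 0.25 ± 0.10, which did not pass in edgeR (adjusted p = 0.0991), whereas the fit without replicate 3 at 12 h gave 0.26 ± 0.07 (adjusted p = 0.0178). Its p over 15 alternatives ran from 0.0178 to 0.289.

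The remaining 3 members changed little. Aen, an exonuclease that acts in apoptosis (ENSMUSG00000030609.18, chr7:78895854-78911209, plus strand), ranged over 33.6 to 37.3 CPM at 0 h, 38.6 to 39.9 CPM at 12 h and 35.4 to 38.3 CPM at 24 h. Its 12 h difference of 0.16 ± 0.05 was the same size without replicate 3 (0.18 ± 0.06), and that at 24 h was 0.06 ± 0.05 (edgeR adjusted p = 0.480). Zmat3, an RNA-binding zinc finger protein (ENSMUSG00000027663.12, chr3:32334792-32366014, minus strand), was at 33.8 to 39.9 CPM at 0 h, 32.7 to 34.6 CPM at 12 h and 35.1 to 38.1 CPM at 24 h, with log2 differences from 0 h of -0.16 ± 0.06 and -0.02 ± 0.06 (edgeR adjusted p = 0.877 at 24 h). Its 12 h difference was -0.17 ± 0.07 without replicate 3. Trp53inp1, a stress protein of autophagy and cell death (ENSMUSG00000028211.11, chr4:11156431-11174379, plus strand), was at 47.5 to 48.2 CPM at 0 h. At 12 h its replicates 1 and 2 were below that range, at 44.7 and 45.2 CPM, and replicate 3 above it, at 55.3 CPM. The sign of its 12 h difference turned with that library, from 0.01 ± 0.07 to -0.08 ± 0.05. Its rise from 12 to 24 h, 0.10 ± 0.07 with all libraries (edgeR adjusted p = 0.454), became 0.20 ± 0.05 without it (adjusted p = 0.0297), the lowest of 15 alternatives that reached up to 0.831.

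**Figure D2:**
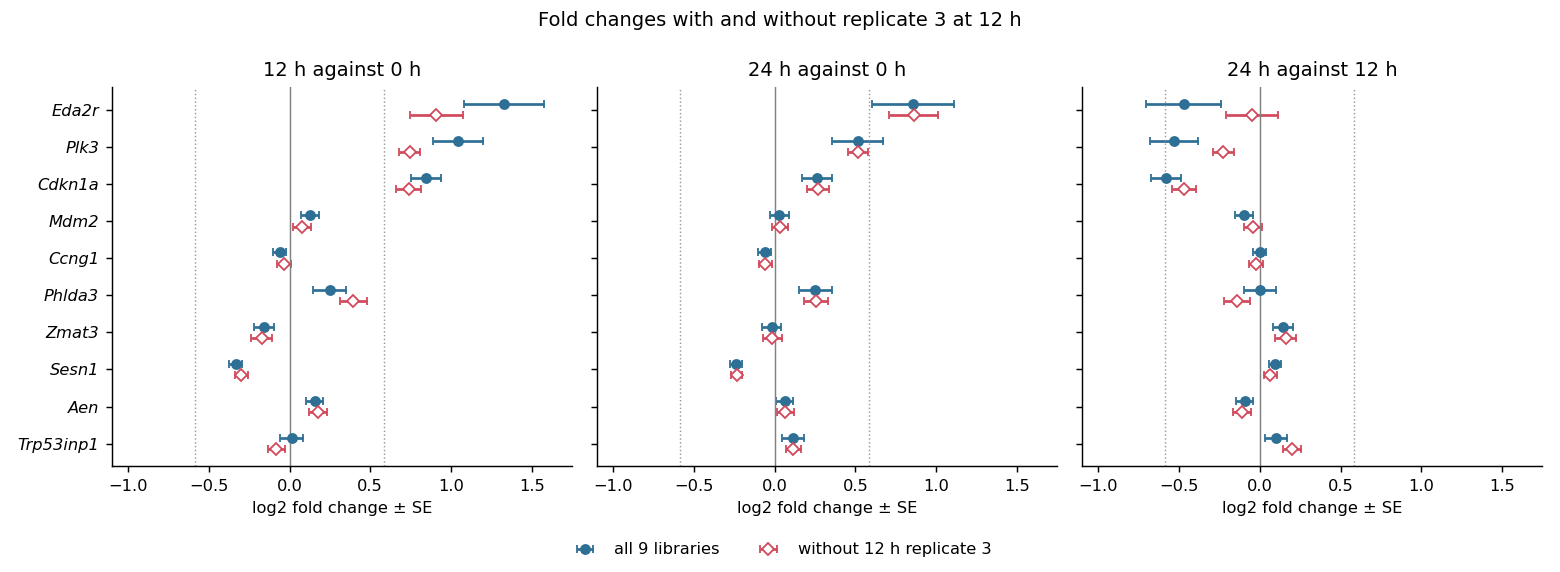
Log2 fold changes (x axis) with standard errors of the 10 genes (y axis) in the 3 comparisons, from the fit of all 9 libraries (filled circles) and without replicate 3 at 12 h (open diamonds); dotted lines mark 1.5-fold. Eda2r moved from 1.33 to 0.91 and Plk3 from 1.04 to 0.74 at 12 h, both still past 1.5-fold.

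Of the 8 members other than Eda2r and Plk3, 1 passed between 0 and 24 h in edgeR (Sesn1, as lower), where 9.67% of all tested genes passed as higher and 7.76% as lower. Eda2r and Plk3 passed as higher, and Eda2r was also 1.5-fold higher, where 1.68% of all tested genes were, but both were chosen with the 0 h libraries of this comparison and nothing is read from their count. Between 12 and 24 h, 1 of the 8 passed in edgeR (Cdkn1a, as lower), where 1.97% of all tested genes passed as higher and 3.06% as lower, and no member was called, where 0.29% of tested genes were in either direction. The differences between 12 and 24 h of the 6 members Mdm2, Ccng1, Phlda3, Zmat3, Sesn1 and Aen lay between -0.10 and 0.14. Without replicate 3 at 12 h, Cdkn1a and Phlda3 also passed as higher at 24 h than at 0 h, and Trp53inp1 passed as higher at 24 h than at 12 h. In that fit the share of all tested genes that passed in either direction went from 17.4% to 20.5% for 24 h against 0 h and from 5.03% to 7.63% for 24 h against 12 h.

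Per kilobase of exon, the order of the levels changed with time. At 0 h Sesn1 was the highest, at 30.1 ± 0.557 CPM per kb (SD, n = 3), followed by Ccng1 (21.3 ± 0.453), Mdm2 (13.5 ± 0.333), Cdkn1a (13.3 ± 1.83), Plk3 (11.0 ± 0.312), Phlda3 (9.39 ± 0.350), Trp53inp1 (7.40 ± 0.0571), Aen (6.07 ± 0.322), Zmat3 (3.27 ± 0.281) and Eda2r (1.28 ± 0.323). Of the neighbours in that order, Mdm2 and Cdkn1a did not differ beyond their spread, and the lowest Cdkn1a library lay at the level of the highest Plk3 library. At 12 h Cdkn1a (24.0 ± 3.51), Sesn1 (23.9 ± 0.716), Plk3 (22.7 ± 7.73) and Ccng1 (20.4 ± 0.477) led, and no neighbours among these differed beyond their spread. Over replicates 1 and 2 alone the order was Sesn1 (24.3), Cdkn1a (22.1), Ccng1 (20.7) and Plk3 (18.3). Eda2r reached 3.27 ± 1.48 at 12 h, or 2.41 over replicates 1 and 2, near Zmat3 at 2.93 ± 0.0864, so the gene with the largest fold change was among the least expressed of the set.

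The shift of replicate 3 at 12 h was unequal across the set. Set against the mean log2 CPM of replicates 1 and 2, it was higher by 1.04 for Eda2r, a value reached by 47 tested genes (0.413%), by 0.79 for Plk3, reached by 130 genes (1.14%), and by 0.33 for Cdkn1a, reached by 629 genes (5.53%). Phlda3 lay at the other end with -0.46, and 97.7% of tested genes had a higher or equal value. For Trp53inp1 the difference was 0.30 and for Mdm2 0.18, and the other 4 members were between -0.08 and 0.07. Replicate 3 was the highest of the 3 libraries for 6 members and the lowest for 4, and over all tested genes it was the highest for 37.2% and the lowest for 36.3%. The central 95% of all tested genes spanned -0.44 to 0.55, which left Eda2r, Plk3 and Phlda3 outside. Eda2r and Plk3 were chosen by a 12 h rise that includes this library, so their places among all tested genes are only a description.

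Immediate early genes, which are induced within minutes by growth factors and stress, were higher in the same library. Replicate 3 was the highest 12 h library for 17 of 19 tested genes of a list of 20, with a median difference of 0.27, compared with 0.02 for 36 other p53 targets. The largest differences were those of Atf3 (0.83), a stress-induced transcription factor, Klf2 (0.71), Egr1 (0.53) and the phosphatase Dusp1 (0.32). Atf3 measured 50.5 and 46.5 CPM in replicates 1 and 2 at 12 h and 86.4 CPM in replicate 3, a pattern like that of Plk3. With all libraries 13 of the 19 genes passed as higher at 12 h and 4 were called, beside 13.6% and 1.34% of all tested genes. Without replicate 3, 11 passed as higher, 1 as lower and 0 were called, where 24.0% of all tested genes passed in either direction and 1.16% were called higher. The 4 genes called with all libraries were still higher in that fit, with log2 fold changes of 0.45 to 0.58, short of 1.5-fold. What set this library apart, and its part in the Eda2r and Plk3 values, was not tested.

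**Figure D3:**
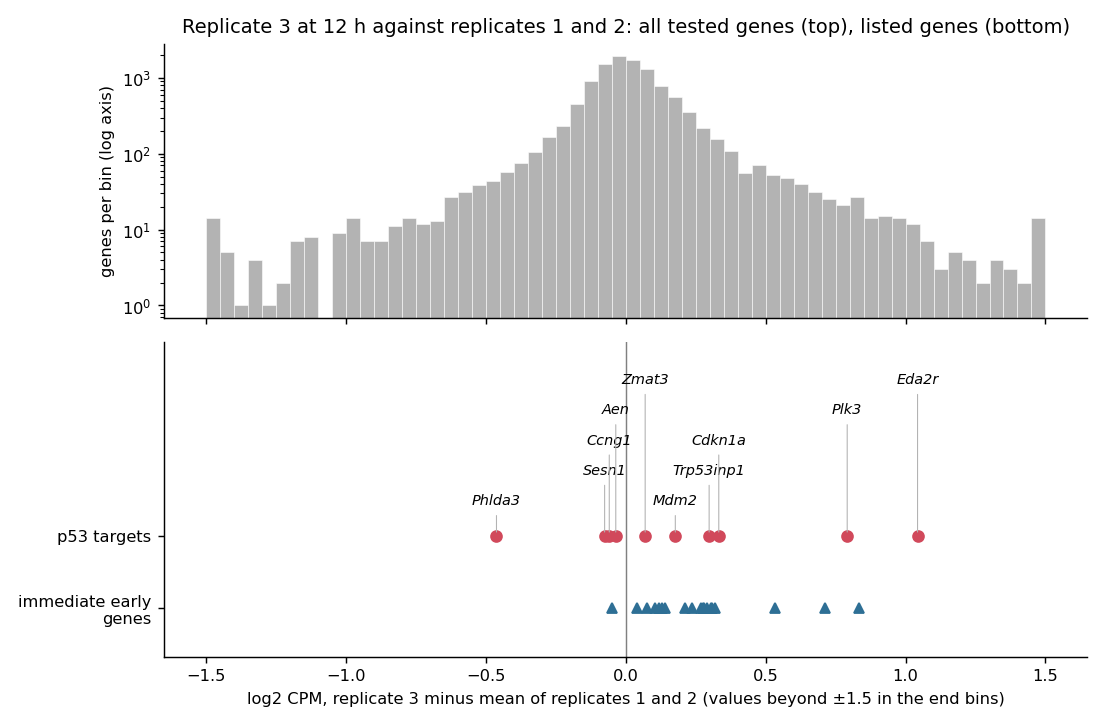
Log2 CPM of replicate 3 at 12 h minus the mean of replicates 1 and 2 (x axis), as a count of all 11373 tested genes per bin on a log axis (top) and for the 10 p53 targets and 19 immediate early genes (bottom). Eda2r and Plk3 lie in the upper tail, at 1.04 and 0.79, while 18 of the 19 immediate early genes also lie above 0.

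Regulators of p53 included genes that were higher and genes that were lower than at 0 h. Trp53 itself was at 76.3 ± 2.38 CPM at 0 h (SD, n = 3), 81.6 ± 2.63 at 12 h and 79.4 ± 1.36 at 24 h, with a log2 difference from 0 h of 0.10 ± 0.04 and 0.06 ± 0.04 at the later times (edgeR adjusted p = 0.0900 and 0.363). RNA levels do not measure p53 protein, whose stability is the main point of control. Of 14 tested regulators in a list of 16, 2 rose and 1 fell at 12 h (13.6% and 11.9% of all tested genes), and 2 rose at 24 h (9.67%). The genes that rose were the DNA damage checkpoint kinases Chek1 (0.56 ± 0.09 at 12 h and 0.48 ± 0.09 at 24 h, adjusted p = 0.000180 and 0.000860) and Chek2 (0.33 ± 0.07 and 0.40 ± 0.07, adjusted p = 0.00192 and 0.000493). Mdm4, an inhibitor of p53 related to Mdm2, fell by 0.23 ± 0.06 at 12 h (adjusted p = 0.0150) and differed by -0.13 ± 0.06 at 24 h (adjusted p = 0.169). Without replicate 3 at 12 h, 3 regulators passed as higher and 2 as lower at 12 h, and 3 as higher at 24 h. In that fit 24.0% of all tested genes passed in either direction at 12 h and 20.5% at 24 h. The median log2 fold change of the regulators was 0.07 at 12 h.

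Other p53 targets also included genes that rose and genes that fell. Of 36 tested in a list of 40, 8 passed as higher and 4 as lower at 12 h, where 13.6% and 11.9% of all tested genes did, with a median of 0.11. At 24 h 9 passed as higher and 3 as lower, beside 9.67% and 7.76% of all tested genes, with a median of 0.05. Pidd1, a death-domain protein that activates caspase 2, rose by 0.63 ± 0.14 and 0.76 ± 0.14 at the 2 later times (edgeR adjusted p = 0.00312 and 0.000905), the one target of this list that passed with a change of at least 1.5-fold. Without replicate 3 its 12 h difference was 0.56 ± 0.15, short of 1.5-fold. Gadd45a, a growth arrest gene of which 19.1% of the exonic bases overlap a gene on the other strand, rose by 0.55 ± 0.11 and 0.41 ± 0.12 (adjusted p = 0.00213 and 0.0214), and Klf4, a transcription factor, by 0.45 ± 0.09 and 0.40 ± 0.09 (adjusted p = 0.00112 and 0.00354). Dcxr, a carbonyl reductase, fell by 0.51 ± 0.10 at 12 h (adjusted p = 0.000920) and differed by -0.25 ± 0.09 at 24 h (adjusted p = 0.0804). The counts of targets that passed against 0 h were the same without replicate 3 at 12 h. From 12 to 24 h, 2 of the 36 passed in edgeR, both as lower, where 3.06% of all tested genes passed as lower and 1.97% as higher. They were the antiproliferative gene Btg2 (-0.31 ± 0.07, adjusted p = 0.0136) and the thiamine transporter Slc19a2 (-0.20 ± 0.05, adjusted p = 0.0417).

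Paralogs of the 10 genes, a list that shares Mdm4 with the regulators and Sesn2 with the other targets, included polo-like kinases that rose and sestrins that were split. Of 14 tested in a list of 19, 5 passed as higher and 3 as lower at 12 h (13.6% and 11.9% of all tested genes), and 3 and 2 at 24 h (9.67% and 7.76%). In the sestrin family, Sesn2 rose by 0.52 ± 0.08 at 12 h and 0.40 ± 0.08 at 24 h (edgeR adjusted p = 0.000149 and 0.00209), while Sesn3 fell by 0.43 ± 0.04 and 0.41 ± 0.04 (adjusted p = 4.55e-06 and 5.96e-06), as Sesn1 did. In the polo-like kinase family, the centriole duplication kinase Plk4 rose by 0.65 ± 0.07 and 0.72 ± 0.07 (adjusted p = 8.60e-06 and 3.27e-06) and was past 1.5-fold at both times, also without replicate 3. The mitotic kinase Plk1 rose by 0.45 ± 0.07 and 0.56 ± 0.07 (adjusted p = 0.000114 and 1.63e-05). From 12 to 24 h Plk1 and Plk4 differed by 0.11 ± 0.06 and 0.07 ± 0.07, which did not pass (adjusted p = 0.375 and 0.656), beside the -0.53 ± 0.15 of Plk3; whether these differ was not tested. Isg20, an exonuclease gene related to Aen, was 0.32 ± 0.06 lower at 24 h than at 12 h on the log2 scale (adjusted p = 0.00741). Against 0 h it was 0.27 ± 0.06 higher at 12 h (edgeR adjusted p = 0.00454) and differed by -0.05 ± 0.06 at 24 h (adjusted p = 0.646).

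**Figure D4:**
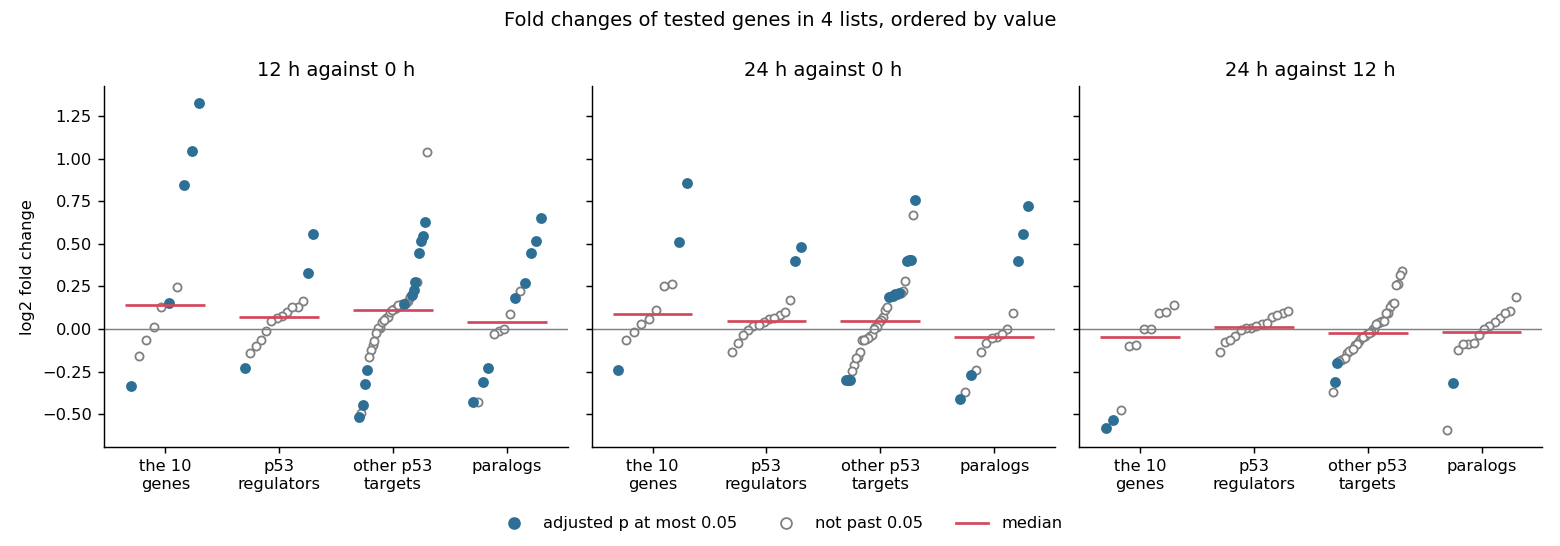
Log2 fold changes (y axis) of the tested genes in 4 lists, ordered by value within each list, in the 3 comparisons; filled circles have an edgeR adjusted p of at most 0.05 and red lines are medians. Each list holds genes above and below 0 at 12 h, and its median is between 0.04 and 0.14.

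The promoters of the 10 genes were read because part of the set rose and part did not. RefSeq windows on GRCm38.p6, from 250 bases before to 50 after each annotated start, were held for 8 of the 10 genes. An exact match to the p53 half-site consensus, a degenerate palindrome of 10 bases that reads the same on both strands, was present in the windows of Cdkn1a, Mdm2, Ccng1, Sesn1 and Aen. Over all 27025 genes with a window, 9.55% held such a match. These are the matches, with the half-site in capitals and every sequence written 5′ to 3′ on the strand of its gene.
Cdkn1a, chr17:29090896-29090947, plus strand: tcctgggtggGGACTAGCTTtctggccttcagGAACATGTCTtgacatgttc
Mdm2, chr10:117710925-117710954, minus strand: agtcggatagGAACTTGCCTagcgaccatt
Ccng1, chr11:40755452-40755481, minus strand: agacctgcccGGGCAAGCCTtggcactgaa
Sesn1, chr10:41887256-41887285, plus strand: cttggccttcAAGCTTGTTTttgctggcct
Aen, chr7:78895927-78895956, plus strand: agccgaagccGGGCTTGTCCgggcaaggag

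The Cdkn1a half-sites began 73 and 51 bases before the start, those of Mdm2 and Ccng1 186 and 185 bases before it, and that of Sesn1 173 bases before a start inside the gene. That of Aen began 11 bases after its first annotated start. The genes with a match included 1 that was higher at 12 h by over 1.5-fold (Cdkn1a), 1 that was lower (Sesn1) and others near 0 h levels. Whether these half-sites bear on the direction of change was not tested. No match was found in the windows of Eda2r, Plk3 and Phlda3, which says only that this 10-base form was not in these 300 bases. For Eda2r and Plk3, the most raised of the set, 100 bases ending shortly before the start are shown in lower case.
Eda2r, chrX:97377220-97377319, minus strand: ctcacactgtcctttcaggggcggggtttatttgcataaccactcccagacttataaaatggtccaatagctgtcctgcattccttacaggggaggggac
Plk3, chr4:117133974-117134073, minus strand: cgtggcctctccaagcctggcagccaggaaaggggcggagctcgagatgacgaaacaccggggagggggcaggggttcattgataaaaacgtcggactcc

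Genes with the profile most like that of Eda2r over the 9 libraries, by Pearson r of log2 CPM among 8412 genes with a mean of at least 10 CPM, were Ankrd50 (0.983), Mapk6 (0.983), Epha2 (0.981), Zfat (0.977) and Hoxb9 (0.974). Those most like Plk3 were Mex3d (0.983), Zswim4 (0.978), Mapk6 (0.969), Rab6a (0.968) and Hs3st3b1 (0.968). Mapk6, an atypical MAP kinase gene, was in both groups. The correlations share 9 libraries, and for each of these genes replicate 3 at 12 h was also above the mean of its partners, by 0.15 to 0.52 on the log2 scale, and they are a description.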

How the data were processed

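RNA from 9 MyC-CaP libraries (0, 12 and 24 h, 3 biological replicates each) was read by paired-end sequencing (150 bp). Adaptors were trimmed by the authors with Cutadapt; they aligned reads to GRCm38.p6 with STAR and counted them per gene with featureCounts on a GENCODE annotation. The deposited values are raw counts with no normalization. Whether counting used strand is not given in the sources used here. Of the exonic bases, 3.32% of Plk3 and 7.68% of Cdkn1a overlap a gene on the other strand, and no other member overlaps a gene.

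Groups came from the labels. Counts were filtered with filterByExpr, scaled by TMM and fitted for all 9 libraries with glmQLFit in edgeR 4.0.16 (R 4.3.3), and each pair of times was tested with glmQLFTest, two-sided. P-values were adjusted by Benjamini-Hochberg over all 11373 tested genes. A gene passed at an adjusted p of at most 0.05 and was called with a fold change of at least 1.5 as well. CPM were computed from the counts after TMM, log2 CPM with a prior count of 2, and CPM per kb from exonic lengths of a GRCm38 annotation. Errors of fold changes are standard errors, computed as the absolute log2 fold change divided by the square root of the F statistic of glmQLFTest. The steps were tested on simulated data.

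The members, lists, tests and naming rule were chosen with earlier results of these data known. All 10 members were named, with every called gene and up to 4 passing genes of largest change per list and comparison from the lists of p53 regulators, other p53 targets and paralogs, and the 4 immediate early genes furthest from their partners in replicate 3 at 12 h. Trp53, Mdm4, Plk1 and Sesn2 were named in any case. Alternatives were DESeq2 1.42.0, DESeq2 size factors, total counts, no filter on low counts, glmTreat at 1.5-fold, only the 2 times compared, a replicate block and leaving out each library. 1 marker gene is not reported here.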

Additional observations from a re-analysis of the deposited data

How the results depend on the processing

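At 12 h against 0 h the 5 members that passed became 8 without the filter on low counts, and the 3 called became 0 with glmTreat, which tests the fold change against 1.5. Over all genes, 2896 of 11373 passed in the main fit and 3136 of 15552 without the filter. The 261 genes called in either direction became 4 with glmTreat. At 24 h against 0 h the 3 that passed became 1 with DESeq2 (Sesn1), 5 without the filter and 5 when the 12 h libraries were left out of the fit. Over all genes, 1982 of 11373 passed in the main fit and 1894 of 11330 with DESeq2. Those counts were 2286 of 15552 without the filter and 2255 of 11296 without the 12 h libraries. Leaving out 1 library gave 1 to 5, with only Sesn1 left on dropping a 0 h library (replicate 1 or 3) or a 24 h library (replicate 2 or 3), and 5 without replicate 3 at 12 h. Of all genes, 1323 to 2359 passed in these fits. The 1 call at 24 h (Eda2r) became 0 with DESeq2, glmTreat and each of those 4 single libraries, so leaving out 1 library gave 0 to 1. The 258 genes called in either direction became 234 with DESeq2 and 6 with glmTreat. They numbered 182 to 279 with 1 library left out. Between 12 and 24 h the 2 that passed became 1 with DESeq2 (Cdkn1a) and in the fit of only these times, and 1 to 3 with 1 library left out, where 0 to 2 were called. Over all genes, 572 of 11373 passed in the main fit, 718 of 10425 with DESeq2 and 582 of 11219 in the fit of these times. With 1 library left out 214 to 879 passed and 16 to 36 were called. The spread of each gene was estimated over all libraries in a fit, so the 12 h libraries enter the error of 24 h against 0 h. For Cdkn1a and Phlda3, gained when the 12 h libraries were left out, the log2 differences were 0.26 and 0.25 before and 0.27 and 0.26 after. Their SE went from 0.09 and 0.10 to 0.07 and 0.07. Why the filter and the fit moved the member counts was not tested.

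Differences that turned sign were all small. Ccng1 between 12 and 24 h (-0.00066) became 0.00027 with DESeq2, 0.0010 with DESeq2 size factors, 0.013 with total counts and 7.59e-05 without the filter, and ran from -0.025 to 0.013 with 1 library left out. In the latter fits Trp53inp1 at 12 h ran from -0.083 to 0.068, Mdm2 at 24 h from -0.022 to 0.061, Zmat3 at 24 h from -0.083 to 0.037 and Phlda3 from 12 to 24 h from -0.14 to 0.088. Over all members, comparisons and alternatives, 391 values kept direction and side of the threshold, 18 gained it, 25 lost it and 16 changed sign. The same-numbered replicates did not deviate together (r from -0.074 to 0.131, others -0.125 to 0.120), and with the replicate block 5, 3 and 2 members passed and 3, 1 and 0 were called in the 3 comparisons. With 3 libraries per time point, each p-value set a difference against the spread among these replicates. That spread was estimated over all libraries in a fit and drew on other genes. The member with the fewest counts, Eda2r, averaged 7.55 CPM at 0 h.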
